A study of Mus musculus with 18 samples.

Results

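The genes described here were 9 members of the TGF-beta system: the ligands Tgfb1, Tgfb2 and Tgfb3, the activin subunit gene Inhba, the latency protein gene Ltbp1, the receptors Tgfbr1, Tgfbr2 and Tgfbr3, and the target gene Tgfbi. They were taken by name, and all 9 had a probe set among the 18193 genes that the arrays measured with a probe set of 1 gene symbol. The brightest such probe set by mean signal over all 18 arrays stood for a gene, and sets marked _x_at, which can bind several transcripts, were avoided where another existed.

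TGF-beta ligands are secreted in a latent form, held by their own propeptide and tied to the extracellular matrix by latent TGF-beta binding proteins. Once released, a ligand binds the type II receptor Tgfbr2, which phosphorylates the type I receptor Tgfbr1, and Tgfbr1 in turn phosphorylates the transcription factors Smad2 and Smad3. In tumours the pathway is known for driving fibroblasts to make matrix and for restraining T cells.

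The RNA came from pieces of MC38 tumours, a colon carcinoma cell line of the C57BL/6 mouse, of which 500000 cells had been placed under the skin of the flank of C57BL/6-Ly5.1 mice aged 6 to 12 weeks. The groups were MEKi/CD40 (4 tumours), MEKi (5 tumours), anti-CD40 (4 tumours) and control (5 tumours). MEKi stands for GDC-0623, an inhibitor of the kinase MEK given daily at 30 mg/kg, and tumours without it received the MCT vehicle. Anti-CD40 stands for an agonist mouse IgG1 antibody (Ab) to the receptor CD40, and tumours without it received a control IgG. Both Abs were given on treatment days 3, 5 and 7 and again 1 day before sampling. Tumours were sampled 22 days after the cells were placed. Every array held RNA of a different animal, all tumours grew from the same cell line, and a whole piece holds tumour, stromal and immune cells. In such bulk samples fewer cells of a type and less RNA per cell cannot be told apart.

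Log2 signals ran between 2.16 and 16.34, with 34.4% of all values sitting at the minimum. Array medians lay between 2.73 and 2.96, upper quartiles between 8.15 and 8.25, and arrays of the same group had pairwise correlations of 0.987 to 0.998. The animal numbers in the sample titles formed a low and a high series. All MEKi/CD40 and anti-CD40 animals belonged to the low series, which also held MEKi 1 and 2 and control 1 and 2, while MEKi 3 to 5 and control 3 to 5 belonged to the high series. The difference between the 3′ and 5′ probe sets of Actb, a gauge of RNA integrity, was 0.37 to 0.43 in MEKi/CD40, 0.38 to 0.41 in MEKi, 0.32 to 0.37 in anti-CD40 and 0.24 to 0.39 in control. That of Gapdh was −0.22 to −0.16 in MEKi/CD40, −0.23 to −0.19 in MEKi, −0.27 to −0.23 in anti-CD40 and −0.28 to −0.23 in control, so all MEKi/CD40 arrays lay above all control arrays, and the part of RNA quality in the results was not tested. Of 9 epithelial markers, 8 stayed below 3 on every array (Epcam, Krt8, Krt18, Krt19, Krt20, Cdx2, Cldn4 and Cldn7), although the tumour cells are named a colon carcinoma line. The remaining marker, Cdh1, read 4.35 to 6.89 over all arrays. Its log2 fold change against control with MEKi/CD40 was −1.20. The adipocyte marker score, the mean log2 signal of the list, reached 10.7 in MEKi/CD40 2, 6.94 in MEKi/CD40 4 and 6.08 in anti-CD40 3, and the skeletal muscle score of MEKi/CD40 4 was 8.58, against at most 2.98 on any other array.

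Against control, 5 of the 9 genes rose with MEKi/CD40 and 0 fell, and with MEKi alone 4 rose and 1 fell. Tgfb2, Tgfbr2, Tgfbr3 and Ltbp1 rose in both comparisons, Inhba rose with MEKi/CD40, and Tgfb1 fell with MEKi. The direct comparison of MEKi/CD40 with MEKi called neither Inhba nor Tgfb1. A gene was called at an adjusted p under 0.05 (limma, Benjamini-Hochberg over 45037 probe sets). With MEKi/CD40, 14.9% of all probe sets tested were called, and among 10012 genes with a mean signal of at least 5, 12.3% rose and 21.5% fell. With MEKi, 7.83% of probe sets were called, and 10.5% of such genes rose and 8.99% fell. The median of the 9 log2 fold changes was 0.55 with MEKi/CD40 and 0.52 with MEKi, against −0.05 and −0.01 over the 10012 genes.

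**Figure D1:**
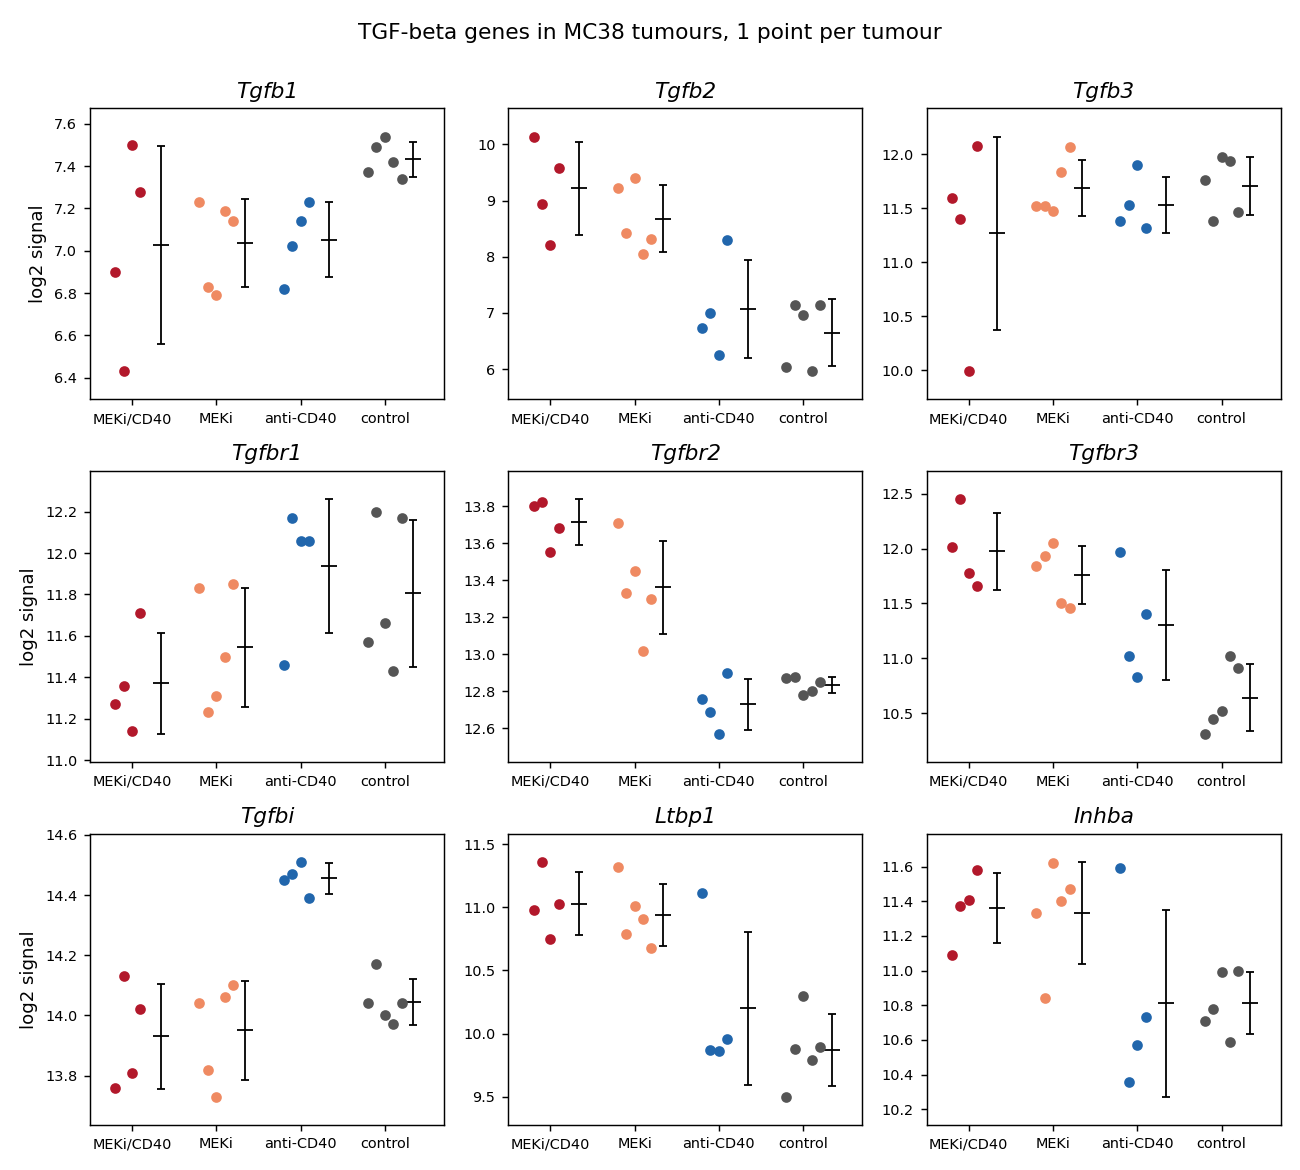
Log2 signal of the probe set standing for each of the 9 genes, with 1 point per tumour and the group mean ± SD as a bar to the right of the points. Tgfb2, Tgfbr2, Tgfbr3 and Ltbp1 lie higher in all MEKi/CD40 and MEKi tumours than in all control tumours, while Tgfbi is highest in the 4 anti-CD40 tumours.

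The windows around the gene starts that RefSeq gives on GRCm38.p6, 250 bases before to 50 after each start, were read for Smad and related motifs. Entries were present for 7 of the 9 genes, 9 windows in all, with none used for Tgfb3 and Tgfbr3. The windows of Tgfb2, Tgfbr2 and Ltbp1, called with both MEKi/CD40 and MEKi, are shown 5′ to 3′ on the strand of the gene. Capitals mark CAGAC or its reverse complement (the Smad box), CACGTG (the E-box) and TGACGTCA (the cyclic AMP response element), and no match overlapped another motif.
Tgfb2, chr1:186705940-186706239, minus strand: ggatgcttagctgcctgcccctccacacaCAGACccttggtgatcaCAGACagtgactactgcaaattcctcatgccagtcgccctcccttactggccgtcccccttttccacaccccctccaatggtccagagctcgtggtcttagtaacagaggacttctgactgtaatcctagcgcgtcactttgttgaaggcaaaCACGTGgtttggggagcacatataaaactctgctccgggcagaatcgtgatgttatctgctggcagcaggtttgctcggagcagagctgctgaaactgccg
Tgfbr2, chr9:116175314-116175613, minus strand: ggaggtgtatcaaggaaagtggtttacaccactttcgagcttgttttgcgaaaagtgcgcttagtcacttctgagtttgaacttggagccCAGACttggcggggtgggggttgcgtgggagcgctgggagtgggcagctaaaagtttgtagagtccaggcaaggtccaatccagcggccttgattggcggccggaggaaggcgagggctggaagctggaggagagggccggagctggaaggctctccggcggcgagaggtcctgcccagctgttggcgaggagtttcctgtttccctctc
Ltbp1, chr17:75005279-75005578, plus strand: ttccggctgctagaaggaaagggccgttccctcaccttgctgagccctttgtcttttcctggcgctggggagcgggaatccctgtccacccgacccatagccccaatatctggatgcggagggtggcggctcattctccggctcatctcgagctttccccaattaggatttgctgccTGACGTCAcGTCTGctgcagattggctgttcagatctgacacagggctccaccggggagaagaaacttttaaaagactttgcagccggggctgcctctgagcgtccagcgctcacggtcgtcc

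The Smad box stood in 6 of the 9 windows (Tgfb2, Tgfbr2, Tgfbi, both of Ltbp1 and the second of Tgfbr1), and in 49.6% of the 32851 RefSeq windows of the same length. Inhba and Tgfb1 had none in this window. The E-box occurred only in Tgfb2 among the 9 windows and in 7.15% of all, and the cyclic AMP response element only in Ltbp1 and in 1.79% of all. The AP-1 motif TGANTCA, in 7.81% of all windows, and the GC box GGGCGG, in 35.7%, were searched on both strands as well. AP-1 was in none of the 9, and the GC box was in those of Tgfb1, Tgfbi and Tgfbr1 but in none of the 3 windows shown. A match is a stretch of letters, and binding was not measured.

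Among the ligands, Tgfb2 had the largest change of the 9 genes against control. TGF-beta 2 is the isoform that binds the type II receptor weakly and depends on the co-receptor encoded by Tgfbr3. Its log2 signal was 10.14, 8.94, 8.21 and 9.58 in the MEKi/CD40 tumours, 9.22, 8.42, 9.40, 8.05 and 8.31 in the MEKi tumours, 6.73, 7.00, 6.25 and 8.29 in the anti-CD40 tumours, and 6.04, 7.14, 6.96, 5.96 and 7.14 in the control tumours. Every tumour that received the MEK inhibitor lay above every control tumour, and anti-CD40 4 was the only tumour without the inhibitor that reached the range of the MEKi groups. The log2 fold change against control was 2.57 ± 0.46 (SE) with MEKi/CD40, a 5.94-fold rise with a 95% interval of 2.80 to 12.6 (adjusted p = 0.0107, limma), and 2.03 ± 0.37 with MEKi, a 4.09-fold rise with an interval of 2.28 to 7.33 (adjusted p = 0.0172, limma). In order of the group means, MEKi/CD40 against MEKi did not pass the test over all probe sets (adjusted p = 0.674, limma). Neither did MEKi against anti-CD40 (0.105) or anti-CD40 against control (0.934, limma). For MEKi against anti-CD40 the unadjusted p of Tgfb2 was under 0.05 (limma). Of the other 3 probe sets of Tgfb2, 2 also rose with MEKi/CD40, with log2 fold changes of 2.34 and 2.53, and had differences of 1.65 and 1.63 with MEKi that did not pass (adjusted p = 0.0568 and 0.0581, limma). The dimmest set read 3.47 to 5.15 in MEKi/CD40, 2.94 to 4.74 in MEKi, 2.94 to 3.57 in anti-CD40 and 2.38 to 2.94 in control, and no fold is given because all control values lay under 3, close to the lowest values on the arrays.

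Tgfb1, the isoform most abundant in blood and immune cells, had lower group means in all treated groups than in control, and the difference passed the test with MEKi. The log2 signal of Tgfb1 was 6.90, 6.43, 7.50 and 7.28 in MEKi/CD40, 7.23, 6.83, 6.79, 7.19 and 7.14 in MEKi, 6.82, 7.02, 7.14 and 7.23 in anti-CD40, and 7.37, 7.49, 7.54, 7.42 and 7.34 in control. All MEKi and all anti-CD40 tumours lay below all control tumours, while MEKi/CD40 3 reached the control range. Tgfb1 fell by 0.40 ± 0.10 on the log2 scale with MEKi (adjusted p = 0.0471, limma), and its lower levels in MEKi/CD40 (adjusted p = 0.298) and anti-CD40 (0.562) did not pass the test. The call was lost in 9 of 10 fits that left out 1 array, all but the fit without MEKi 4, with an adjusted p of 0.0548 to 0.107 in those 9.

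Tgfb3, an isoform needed for closure of the palate, passed no test. Log2 signals of Tgfb3 were 11.60, 11.40, 9.99 and 12.08 in MEKi/CD40, 11.48 to 12.07 in MEKi, 11.32 to 11.90 in anti-CD40, and 11.38 to 11.98 in control. The groups overlapped throughout, and only MEKi/CD40 3 lay below 11. This was also the tumour with the lowest Tgfb2, Tgfbr1, Tgfbr2 and Ltbp1 signals among the MEKi/CD40 tumours. It had the highest macrophage score of all 18 arrays (12.1, against 10.7 to 11.1 in the other MEKi/CD40 tumours). Its marker scores for fibroblasts (12.8), endothelial cells (6.71), platelets (5.25) and neutrophils (6.23) were also the highest of the 18 arrays. The part of these differences in the signals of the 9 genes was not tested.

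Inhba encodes the beta A subunit of activin A, a ligand of the same family that uses activin receptors and the same Smads. The tumours had Inhba log2 signals of 11.09, 11.37, 11.41 and 11.58 in MEKi/CD40, 11.33, 10.84, 11.62, 11.40 and 11.47 in MEKi, 11.59, 10.36, 10.57 and 10.73 in anti-CD40, and 10.71, 10.78, 10.99, 10.59 and 11.00 in control. All MEKi/CD40 tumours lay above all control tumours, MEKi 2 lay within the control range, and anti-CD40 1 stood above the other anti-CD40 tumours. Inhba rose by 0.55 ± 0.12 with MEKi/CD40 (adjusted p = 0.0248, limma), a 1.46-fold change, and with MEKi the higher level did not pass (adjusted p = 0.0766). The MEKi/CD40 call was lost in 6 of 9 fits that left out 1 array, namely MEKi/CD40 2, 3 or 4 or control 1, 2 or 4, with an adjusted p of 0.0524 to 0.0647 (limma). Without MEKi 2, Inhba passed in the MEKi comparison as well (adjusted p = 0.0244).

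Ltbp1 encodes the binding protein that ties latent TGF-beta to the matrix. For Ltbp1 the log2 signal was 10.98, 11.36, 10.75 and 11.03 in MEKi/CD40, 11.32, 10.79, 11.01, 10.91 and 10.68 in MEKi, 11.11, 9.87, 9.86 and 9.96 in anti-CD40, and 9.50, 9.88, 10.30, 9.79 and 9.89 in control. The MEKi/CD40 and MEKi tumours all lay above the control tumours and overlapped each other, and anti-CD40 1 lay within that range while the other 3 anti-CD40 tumours lay with control. Ltbp1 rose by 1.16 ± 0.18 with MEKi/CD40 (adjusted p = 0.00589, limma) and by 1.07 ± 0.16 with MEKi (adjusted p = 0.0109), changes of 2.23-fold and 2.10-fold. MEKi/CD40 and MEKi did not differ beyond their spread (log2 difference of 0.09 with a 95% interval of −0.29 to 0.47, adjusted p = 0.973). A dim second probe set of Ltbp1 read 3.56 to 4.69 in MEKi/CD40, 3.07 to 4.45 in MEKi, 2.83 to 4.20 in anti-CD40 and 2.80 to 2.91 in control, again with no fold against control values under 3.

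Tgfbr2, the type II receptor that binds the ligand, was called with both MEKi/CD40 and MEKi. Its log2 signal was 13.80, 13.82, 13.55 and 13.68 in MEKi/CD40, 13.71, 13.33, 13.45, 13.02 and 13.30 in MEKi, 12.76, 12.69, 12.57 and 12.90 in anti-CD40, and 12.87, 12.88, 12.78, 12.80 and 12.85 in control. The tumours with the MEK inhibitor lay above all others, and the control tumours lay close together. Against control Tgfbr2 rose by 0.88 ± 0.06 with MEKi/CD40 (1.84-fold, adjusted p = 5.28e-04, limma) and by 0.53 ± 0.11 with MEKi (1.44-fold, adjusted p = 0.0280). The MEKi/CD40 mean was higher than the MEKi mean by 0.35, with an interval of 0.03 to 0.67, which did not pass over all probe sets (adjusted p = 0.243, limma). The MEKi call was lost in 7 of 10 fits that left out 1 array, namely MEKi 2, 3 or 5 or control 1 to 4, with an adjusted p of 0.0501 to 0.0683. A second, dimmer probe set gave log2 differences of 0.60 with MEKi/CD40 (adjusted p = 0.0623) and 0.62 with MEKi (0.0933), and on it MEKi/CD40 3 (7.36) and MEKi 4 (7.41) lay within the control range of 7.09 to 7.50 (limma).

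Tgfbr3 encodes betaglycan, a co-receptor without kinase activity that presents TGF-beta 2 to the type II receptor and also binds inhibin. Tgfbr3 had a log2 signal of 12.01, 12.45, 11.78 and 11.66 in MEKi/CD40, 11.84, 11.93, 12.05, 11.50 and 11.46 in MEKi, 11.97, 11.02, 10.83 and 11.40 in anti-CD40, and 10.31, 10.45, 10.52, 11.02 and 10.91 in control. The MEKi/CD40 and MEKi tumours lay above all control tumours, and the anti-CD40 tumours spread over both ranges. Tgfbr3 rose by 1.33 ± 0.21 with MEKi/CD40 (2.52-fold, adjusted p = 0.00686, limma) and by 1.11 ± 0.18 with MEKi (2.16-fold, adjusted p = 0.0120). With anti-CD40 it had the largest difference of the 9 genes, 0.66 ± 0.26, which did not pass (adjusted p = 0.879, limma). Its second probe set, at 3.06 to 3.94 over all arrays, showed no called change.

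Tgfbr1, the type I receptor kinase, had a lower mean with MEKi/CD40 than in control on its 2 measurable probe sets. Only the dimmer set passed. On the brighter set the log2 signal was 11.27, 11.36, 11.14 and 11.71 in MEKi/CD40, 11.23 to 11.85 in MEKi, 11.46, 12.17, 12.06 and 12.06 in anti-CD40, and 11.57, 12.20, 11.66, 11.43 and 12.17 in control. The groups overlapped, and the MEKi/CD40 level, 0.44 below control, did not pass (adjusted p = 0.252, limma). On the dimmer set the signal was 4.95, 4.97, 3.97 and 4.91 in MEKi/CD40, 5.37 to 5.78 in MEKi, 5.68 to 6.57 in anti-CD40, and 5.67 to 6.49 in control. On that set the MEKi/CD40 tumours lay below all others, with a log2 fold change against control of −1.30 ± 0.28 (adjusted p = 0.0220, limma). The third probe set stayed below 3.

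Tgfbi, a secreted matrix protein gene first found as induced by TGF-beta and widely used as its target, was called against anti-CD40 but not against control. Log2 signals of Tgfbi were 13.76, 14.13, 13.81 and 14.02 in MEKi/CD40, 14.04, 13.82, 13.73, 14.06 and 14.10 in MEKi, 14.45, 14.47, 14.51 and 14.39 in anti-CD40, and 14.04, 14.17, 14.00, 13.97 and 14.04 in control. The 4 anti-CD40 tumours lay above all others, and the remaining groups overlapped. Against control the anti-CD40 difference was 0.41 ± 0.04, 1.33-fold, with an adjusted p of 0.167 (limma). By unadjusted p it ranked 6 among all probe sets in that comparison. The 4 probe sets of Tgfbi had anti-CD40 differences of 0.31 to 0.51, and 3 of them had no overlap with control. These sets read the same gene in the same tumours and are not independent. The share of all probe sets without such overlap was not counted. Tgfbi was lower by 0.53 ± 0.09 in MEKi/CD40 than in anti-CD40 (adjusted p = 0.0148) and by 0.51 ± 0.08 in MEKi than in anti-CD40 (0.0247, limma). The first of these calls was lost without anti-CD40 2 (adjusted p = 0.0532) or anti-CD40 3 (0.0523), and the second without anti-CD40 2, 3 or 4 or MEKi 1 or 2 (0.0507 to 0.0786).

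**Figure D2:**
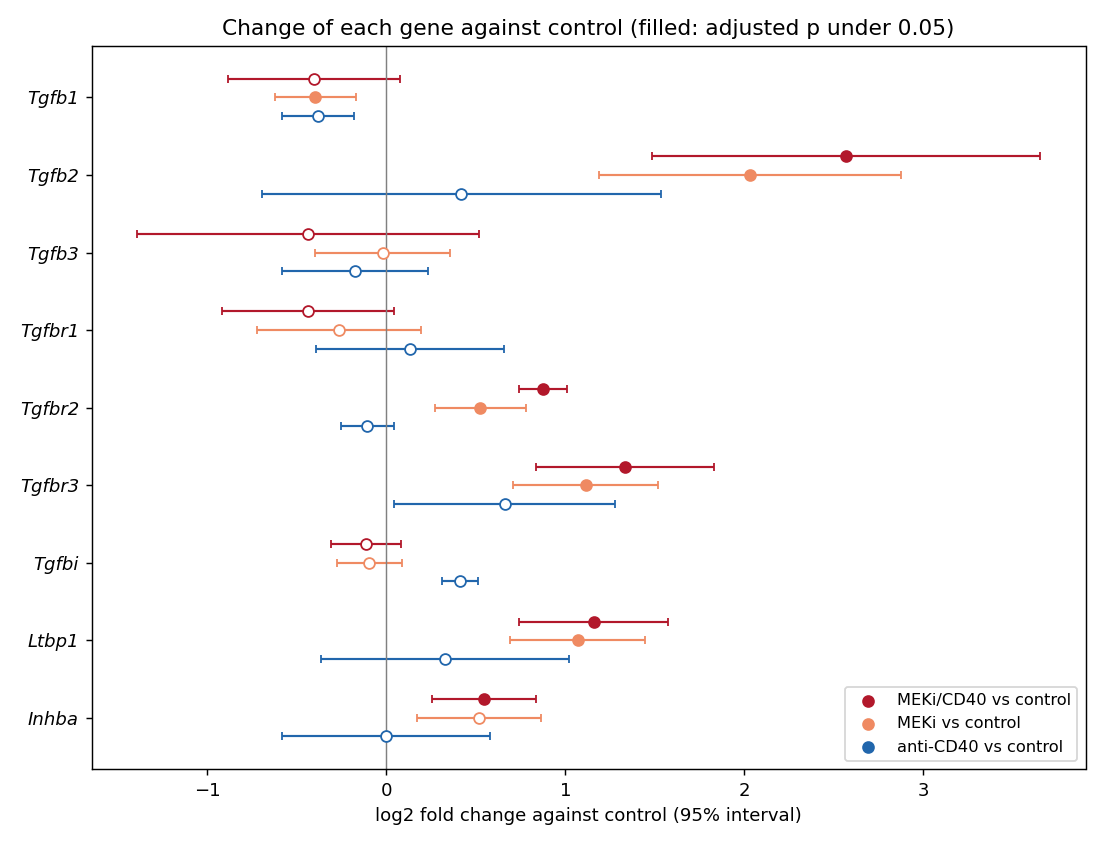
Log2 fold change against control of the 9 genes with MEKi/CD40, MEKi and anti-CD40, as points with 95% intervals (limma), filled where the adjusted p was under 0.05. The MEKi/CD40 points run from −0.44 (Tgfb3 and Tgfbr1) to 2.57 (Tgfb2), 5 of them and 5 MEKi points are filled, and no anti-CD40 point is filled.

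The other comparisons asked what each drug added to the other. With anti-CD40 against control 0 of the 9 genes were called, and 0% of all probe sets were called (limma), with 2423 probe sets and 3 of the 9 genes (Tgfb1, Tgfbi and Tgfbr3) at an unadjusted p under 0.05. With trend and robust moderation the number of called genes was also 0. In MEKi/CD40 against MEKi, 0 of the 9 genes were called by limma, and 0 with trend and robust moderation, where 2.5% of all probe sets were called and 1 gene, Tgfbr2, had an unadjusted p under 0.05. The largest difference there was that of Tgfb2, 0.54 ± 0.46 (adjusted p = 0.674, limma), with an interval of −0.54 to 1.62.

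In MEKi/CD40 against anti-CD40, Tgfbr2 rose by 0.98 ± 0.09 (1.98-fold, adjusted p = 0.00309, limma) and Tgfbi fell, where 11.6% of all probe sets were called and 9.52% of genes with a mean of at least 5 rose and 16.2% fell. The largest difference was again that of Tgfb2, 2.15 ± 0.59 (adjusted p = 0.0688), which passed without MEKi/CD40 3 (0.0454) or anti-CD40 4 (0.0464). Without anti-CD40 1, 5 genes were called (Tgfbr1, Tgfbr2, Tgfbi, Ltbp1 and Inhba). MEKi against anti-CD40 gave the same called genes, Tgfbr2 higher by 0.63 ± 0.14 (adjusted p = 0.0463, limma) and Tgfbi lower, where 5.09% of all probe sets were called and 7.16% of such genes rose and 5.38% fell. The Tgfbr2 call in MEKi against anti-CD40 was lost in 8 of 9 fits that left out 1 array, all but the fit without MEKi 4, with an adjusted p of 0.0713 to 0.130. The difference of Tgfb2 there was 1.61 ± 0.48 (adjusted p = 0.105).

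The interaction, which asks on the log2 scale how far MEKi/CD40 departs from the effects of both drugs added up, was called for 0 of the 9 genes and for 2.64% of all probe sets (limma), with 2 genes, Tgfbr2 and Tgfbi, at an unadjusted p under 0.05 and 0 called with trend and robust moderation. Its largest value was 0.46 ± 0.15 for Tgfbr2 (adjusted p = 0.134, limma), which passed without MEKi 1 (0.0329). For Tgfbi it was −0.43 ± 0.12 (adjusted p = 0.0731), which passed without MEKi 3 (0.0338) or MEKi/CD40 2 (0.0421). All of these comparisons share tumours with each other.

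The changes of the called genes among the 9 were also read within the animal number series. For MEKi against control, the log2 fold changes within the low series and within the high series were 2.23 and 1.90 for Tgfb2, 1.51 and 0.85 for Tgfbr3, 1.37 and 0.87 for Ltbp1, 0.65 and 0.45 for Tgfbr2, and −0.40 and −0.39 for Tgfb1. No gene of the 9 passed within a series of 2 against 2 or 3 against 3 tumours, and with the series as a block the 4 that rose passed (adjusted p = 0.0212 to 0.0322) while Tgfb1 did not (0.0718, limma). For MEKi/CD40 against control within the low series, 4 against 2 tumours, the fold changes were 2.63 for Tgfb2, 1.60 for Tgfbr3, 1.34 for Ltbp1, 0.84 for Tgfbr2 and 0.62 for Inhba, of which only Tgfbr2 passed (adjusted p = 0.0449, limma). With the series as a block Tgfbr2, Tgfbr3 and Ltbp1 passed (adjusted p = 0.00501 to 0.0190), and Tgfb2 (0.0589) and Inhba (0.0793) did not. For MEKi against anti-CD40, the block gave 0.79 for Tgfbr2 (adjusted p = 0.0987) and −0.53 for Tgfbi (0.109, limma). Without the 3 arrays of highest adipocyte score, Tgfbr2 (adjusted p = 0.00644) and Tgfbr3 (0.0374) passed for MEKi/CD40 against control, and Tgfb2 (0.0900), Ltbp1 (0.0580) and Inhba (0.184) did not (limma). For MEKi/CD40 against anti-CD40 without them, Tgfbi passed (adjusted p = 0.0370) and Tgfbr2 did not (0.0977, limma). MEKi/CD40 2, which had the highest adipocyte score, also had the highest Tgfbr2, Tgfbr3 and Ltbp1 signals among the MEKi/CD40 tumours.

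**Figure D3:**
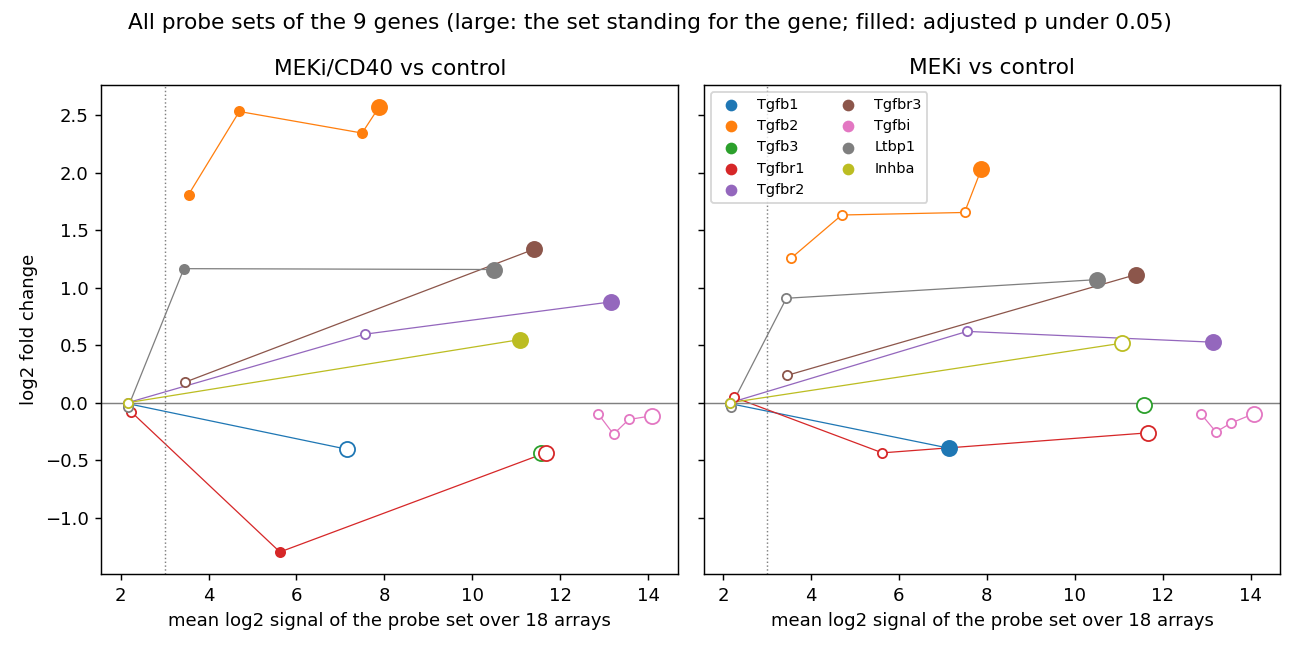
Log2 fold change against control of every probe set of the 9 genes, by its mean log2 signal over 18 arrays, for MEKi/CD40 and MEKi. Large points are the sets that stand for a gene, filled points have an adjusted p under 0.05, lines join sets of the same gene, and the dotted line marks a signal of 3. All 4 sets of Tgfb2 lie above 0 in both panels, and differences of sets near the dotted line are taken against background-level controls, while the dimmer of the 2 measurable Tgfbr1 sets is the only filled point below 0 with MEKi/CD40.

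Other genes of the pathway were counted from 5 lists, which also hold dim genes, and the counts are set beside the shares of the 10012 genes with a mean of at least 5. Of 15 measured genes for latency and activation, 3 rose with MEKi/CD40 and 0 fell (median log2 fold change 0.34), where 12.3% of the 10012 genes rose and 21.5% fell, and 2 rose with MEKi, where 10.5% rose. Those called with MEKi/CD40 were the proteases Mmp14 (0.74, adjusted p = 0.00207), Mmp2 (1.43, 0.00285) and Bmp1 (1.02, 0.00371, limma), and Bmp1 is known to cleave Ltbp1. With MEKi the called genes were Ltbp3 (0.37, adjusted p = 0.0143) and Ltbp2 (1.50, 0.0230, limma), further latent TGF-beta binding proteins, whose differences with MEKi/CD40 did not pass (0.34 and 2.54, adjusted p = 0.481 and 0.131). Thbs1, an activator of latent TGF-beta, and the integrin genes Itgav, Itgb5 and Itgb8 were not called in either comparison, and Itgb6 stayed below 3 on every array.

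Of 11 co-receptor and activin or BMP receptor genes, 4 rose with MEKi/CD40 and 0 fell (median 0.38), beside 12.3% and 21.5% of the 10012 genes. The activin receptors Acvr1b (0.69, adjusted p = 0.00684) and Acvr2a (1.22, 0.00830) rose, as did the BMP receptor Bmpr2 (0.38, 0.0146) and endoglin, Eng (0.77, 0.0499). With MEKi Acvr1b, Acvr2a and Bmpr2 rose as well (0.65, 0.61 and 0.28). The pseudoreceptor gene Bambi was not called in either.

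Of 16 Smad genes and regulators, 2 rose and 3 fell with MEKi/CD40 (median −0.03), and 2 rose and 0 fell with MEKi. These counts are near the shares among the 10012 genes, of which 12.3% rose and 21.5% fell with MEKi/CD40 and 10.5% rose and 8.99% fell with MEKi, so they are no result about the list. Smad3, which carries the signal to DNA, rose by 0.64 ± 0.17 with MEKi/CD40 (adjusted p = 0.0441, with overlapping groups) and by 0.67 ± 0.06 with MEKi (0.00248, limma), while Smad2, its partner under the same receptor, fell by 0.47 ± 0.06 with MEKi/CD40 (0.00401). The corepressor Ski rose with MEKi/CD40 (0.62, adjusted p = 0.0120). Smad7, the inhibitory Smad that TGF-beta itself induces, had a log2 fold change of −0.76 with MEKi/CD40 (adjusted p = 0.0140), and the corepressor Tgif1 one of −0.76 (0.0178, limma). Skil and Pmepa1, feedback genes of the pathway, were not called in either comparison. Smad2 was also lower in MEKi/CD40 than in MEKi (−0.41, adjusted p = 0.0487), and its interaction was −0.53 (0.0121), with that of Smad4 at −0.29 (0.0446, limma).

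Of 13 activin, inhibin and BMP ligand and antagonist genes, 5 rose with MEKi/CD40 and 0 fell (median 0.29), and 3 rose with MEKi, beside 12.3% of the 10012 genes that rose with MEKi/CD40 and 10.5% that rose with MEKi. Follistatin, Fst, which binds activin, averaged 6.72 ± 1.36 in MEKi/CD40, 4.17 ± 0.83 in MEKi, 3.06 ± 0.39 in anti-CD40 and 2.96 ± 0.18 in control (SD, n = 4, 5, 4 and 5), and it rose with MEKi/CD40 (adjusted p = 0.00651). The BMP antagonist Chrdl1 averaged 6.76 ± 1.15 in MEKi/CD40, 3.00 ± 0.72 in MEKi, 2.76 ± 0.79 in anti-CD40 and 2.45 ± 0.14 in control. It was higher in MEKi/CD40 than in MEKi (adjusted p = 0.0335, limma). Its interaction was called too, with MEKi/CD40 above the effects of both drugs added up (adjusted p = 0.0207, limma). The control means of Fst and Chrdl1 lay under 3, so no fold is given. Fstl1 (1.00 with MEKi/CD40 and 0.65 with MEKi), Fstl3 (1.02 and 1.08) and Bmp2 (1.68 and 1.37) rose in both comparisons.

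Of 37 TGF-beta response genes, 16 rose and 1 fell with MEKi/CD40 (median 0.54), and 11 rose and 0 fell with MEKi (median 0.41). Of the 10012 genes, 12.3% rose and 21.5% fell with MEKi/CD40, and 10.5% rose and 8.99% fell with MEKi. This list, like the other 4, was chosen with earlier results of these data known. Its counts beside these shares are therefore a description and no independent support. Ccn2, the connective tissue growth factor gene, rose by 2.28 ± 0.15 with MEKi/CD40 (adjusted p = 5.12e-04), Col1a1 by 5.25 ± 0.42 (8.57e-04), Col3a1 by 0.54 ± 0.05 (0.00152) and Timp3 by 4.80 ± 0.50 (0.00172, limma). Col1a1, Col3a1 and Timp3 also rose with MEKi (3.52, 0.38 and 3.60), while Ccn2 averaged 11.5 ± 0.15 in MEKi/CD40, 10.1 ± 0.61 in MEKi, 9.35 ± 0.68 in anti-CD40 and 9.21 ± 0.26 in control (SD). The gene that fell was Tpm1 (−0.81, adjusted p = 0.0231). The Id genes Id1, Id2 and Id3 and the cell cycle inhibitors Cdkn1a and Cdkn2b, also known targets, were called in neither comparison. Of this list, 4 genes (Col1a1, Col1a2, Col3a1 and Dcn) were fibroblast markers as well. With anti-CD40, 0 genes of the 5 lists were called.

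**Figure D4:**
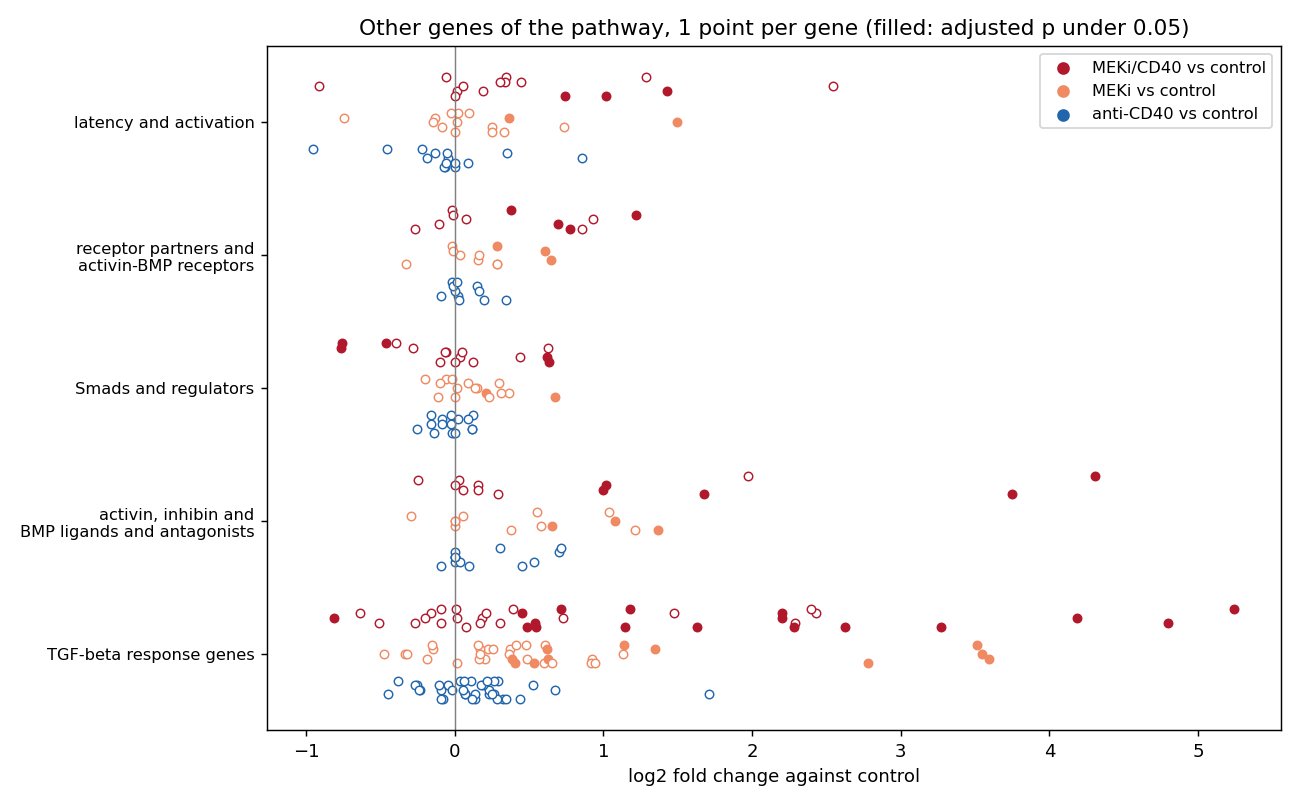
Log2 fold change against control of the genes in the 5 pathway lists, with 1 point per gene, for MEKi/CD40, MEKi and anti-CD40, filled where the adjusted p was under 0.05 (limma). Filled points lie mainly right of 0, with the Smads and regulators on both sides with MEKi/CD40 (2 higher and 3 lower), and no anti-CD40 point is filled.

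Likeness of pattern was taken as Pearson's r over the 18 arrays, which share the groups, among 3831 genes with a mean of at least 5 and a range of at least 1. Tgfb2 was most like Slitrk6 (r = 0.972), Aspn (0.964) and Praf2 (0.960), and Tgfbr2 was most like Slc38a10 (0.979), Selenom (0.977) and Fam114a1 (0.973). Tgfbr3 was most like Cast (0.921), Rassf8 (0.920) and Gnb5 (0.912). Ltbp1 was most like Gpr153 (0.924), Tmem45a (0.918) and Car9 (0.907). Inhba was most like Mllt11 (0.841), Pdgfc (0.833) and Ltbp1 itself (0.832). These values include the differences between groups and are given as a description.

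The score of 11 fibroblast markers, the mean of their log2 signals, was higher in the groups with the MEK inhibitor, as were the rising genes. It was 12.5 to 12.8 in MEKi/CD40, 10.8 to 11.5 in MEKi, 9.68 to 10.6 in anti-CD40 and 9.21 to 10.1 in control. Of the 11 markers, 10 rose with MEKi/CD40 and 6 with MEKi. Among the 10012 genes with a mean of at least 5, 12.3% rose with MEKi/CD40 and 10.5% with MEKi. The 4 groups kept to separate score ranges except anti-CD40 and control. Tgfb2, Tgfbr2, Tgfbr3, Ltbp1 and Inhba each had overlapping ranges in MEKi/CD40 and MEKi. The fibroblast scores of these groups did not overlap. Anti-CD40 4, the anti-CD40 tumour with the highest Tgfb2, had the highest fibroblast score of its group (10.6). Anti-CD40 1, with the highest Ltbp1, Inhba and Tgfbr3, had the lowest (9.68). MEKi/CD40 3, with the highest fibroblast score of all arrays (12.8), had the lowest Tgfb2 (8.21), Tgfbr2 (13.55) and Ltbp1 (10.75) of its group. Its Tgfbr3 and Inhba were not the lowest. The neutrophil score was 4.99 to 6.23 in MEKi/CD40, 3.65 to 5.00 in MEKi, 3.81 to 4.85 in anti-CD40 and 3.30 to 3.61 in control, with 2 of 5 markers called higher with MEKi/CD40, 2 called higher with MEKi and 2 (Cxcr2 and Camp) under 3 on every array. The epidermis score was 4.25 to 4.90 in MEKi/CD40, 3.66 to 5.17 in MEKi, 3.38 to 3.60 in anti-CD40 and 3.36 to 3.63 in control, with 2 of 8 markers called higher with MEKi/CD40, 2 called higher with MEKi and 1 (Krt1) under 3 on every array. The adipocyte score was 3.79 to 10.7 in MEKi/CD40 and 3.72 to 5.53 in MEKi. In anti-CD40 it was 3.22 to 6.08, and in control 3.17 to 4.13. Of 7 measured adipocyte markers, 1 was called higher with MEKi and 0 with MEKi/CD40. The neutrophil, epidermis and adipocyte counts stand beside the same shares of 12.3% and 10.5%. The part of fibroblasts, neutrophils or skin in the changes of the 9 genes was not tested. For fat, only the alternatives that used the adipocyte score were run.

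**Figure D5:**
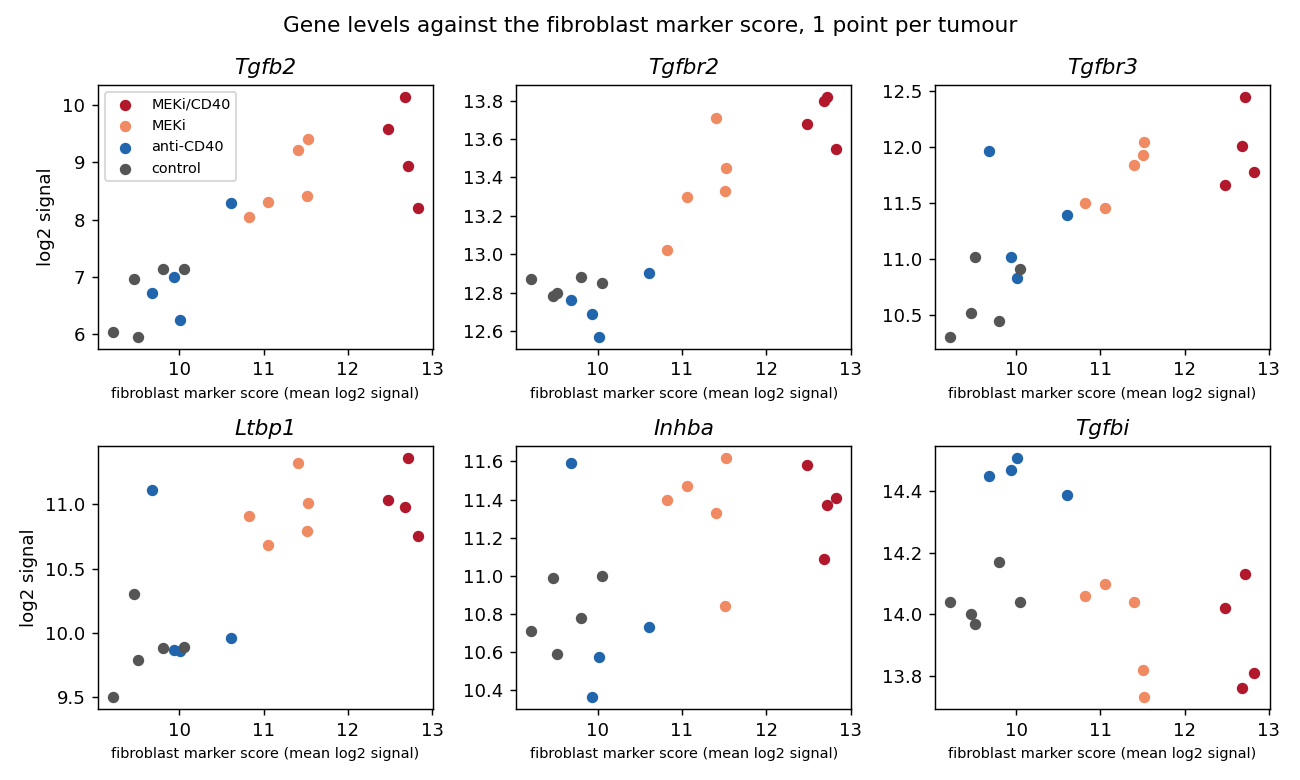
Log2 signal of 6 of the genes against the fibroblast marker score (mean log2 signal of 11 markers), with 1 point per tumour, coloured by group. Tgfb2 and Tgfbr2 have higher group means in the MEKi/CD40 and MEKi tumours, whose scores are higher. MEKi/CD40 3, with the highest score (12.8), has the lowest Tgfb2 (8.21) and Tgfbr2 (13.55) of its group. Anti-CD40 1 stands apart for Ltbp1 (11.11) and Inhba (11.59), and Tgfbi is highest in the anti-CD40 tumours at scores of 9.68 to 10.6.

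The macrophage score was 10.7 to 12.1 in MEKi/CD40, 10.4 to 11.2 in MEKi, 11.0 to 11.4 in anti-CD40 and 11.2 to 11.6 in control. Of 10 measured markers, 1 fell with MEKi/CD40 and 3 fell with MEKi. Among the 10012 genes, 21.5% fell with MEKi/CD40 and 8.99% with MEKi. The T cell score was 5.32 to 6.54 in MEKi/CD40, 5.05 to 6.14 in MEKi, 5.53 to 7.00 in anti-CD40 and 4.77 to 5.95 in control, with 0 of 7 markers called against control in any group. Tgfb1, which immune cells express, was lower in MEKi, where the macrophage score was lower. It was also below control, without passing, in anti-CD40, where the macrophage score was 11.0 to 11.4. In MEKi/CD40 its mean was 7.03, against 7.04 in MEKi, at mean macrophage scores of 11.2 and 10.7. MEKi/CD40 3 had both the highest Tgfb1 (7.50) and the highest macrophage score (12.1) of its group. The part of macrophages or T cells in the level of Tgfb1 was not tested.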

How the data were processed

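RNA from 18 whole MC38 tumours was hybridised to single-colour Affymetrix mouse expression arrays after 3′ labelling. The deposited values are log2 signals, which the authors made by RMA in Chipster. No version of either was given in the sources used here. A large share of the values lies at the minimum, which plain RMA does not give, so the background step is uncertain. Of 45101 probe sets, 64 controls were left out and 45037 tested without a filter. Symbols came from GEO's platform annotation and were checked through RefSeq gene identifiers (34945 sets had 1 symbol, 932 several, 9160 none). Each pair of groups, and for the interaction a factorial model over the 18 arrays, was fitted with limma 3.58.1 in R 4.3.3 (empirical Bayes, two-sided, Benjamini-Hochberg over all 45037), and the fit was tested on simulated data. Errors are SE of the model unless SD is named. All 9 genes are named. From each pathway list up to 4 genes in each direction with MEKi/CD40, by adjusted p, are named, and Smads and regulators freely. The list of activin, inhibin and BMP ligands and antagonists is an exception, with 5 named. Fold changes of genes that were not called, and the genes named only with MEKi or as not called, were chosen after their values were seen. The genes and lists were chosen with earlier results of these data known. Alternatives changed the normalization, filter, summary of probe sets, moderation, animal number series, replicate block, adipocyte score and single arrays. The number of arrays limits the precision.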

Additional observations from a re-analysis of the deposited data

Results flagged for a closer look

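Both results singled out for an array far from its group concern anti-CD40 1. Its Tgfbr1 signal was 11.46, against 12.06 to 12.17 in the other 3 anti-CD40 tumours, and its Ltbp1 signal was 11.11, against 9.86 to 9.96. In each case the gap to the nearest tumour exceeded Dixon's 95% value for the group's range. Of 36 combinations of gene and group, 2 were singled out, and chance gives about 1 in 20. The same tumour had the highest Inhba (11.59) and Tgfbr3 (11.97) signals of its group and the lowest T cell score (5.53, against 6.49 to 7.00). Its dim second Ltbp1 probe set read 4.20, against 2.83 to 2.92.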

How the results depend on the processing

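None of the fold changes recomputed under the alternatives reversed. These were the called ones, the largest of each comparison, Tgfbi in anti-CD40 against control and the interaction, and Inhba in MEKi against control. Other differences, such as that of 0.09 for Ltbp1 between MEKi/CD40 and MEKi, were not recomputed and their sign is not settled. Tgfbr2 in MEKi/CD40 against control passed in all 12 settings and all 9 fits that left out 1 array. For MEKi/CD40 against control, the 5 called genes became 3 when the animal number series entered as a block, 1 for low-series animals alone, 1 with a replicate block, 2 without the 3 arrays of highest adipocyte score and 1 with that score as a covariate, 6 with the mean of all probe sets (Tgfbr1 added), and 4 to 5 with 1 array left out. For MEKi against control, 5 became 3 with trend and robust moderation, 0 within the low or the high series (the high series was chosen after seeing the data) 0 with a replicate block, 6 with the 75th percentile subtracted or the filter (Inhba added), and 3 to 5 with 1 array left out. For MEKi/CD40 against anti-CD40, 2 became 4 with the filter, with the mean of all probe sets or with all arrays in one fit, 1 with a replicate block or without the adipocyte arrays, and 1 to 5 with 1 array left out. For MEKi against anti-CD40, 2 became 0 with trend and robust moderation, the series block, the low series, a replicate block or without the adipocyte arrays, 3 with the filter or the covariate (Tgfb2 added), and 0 to 2 with 1 array left out. The interaction called 1 gene (Tgfbi) with the 75th percentile subtracted, with the filter, without the adipocyte arrays or with the covariate, and 0 to 1 with 1 array left out. Anti-CD40 against control and MEKi/CD40 against MEKi called 0 throughout. Smaller groups and added terms leave fewer degrees of freedom, and otherwise the cause was not tested. Of 25 same-numbered pairs of tumours, 5 had a correlation of deviations over 0.1 (−0.30 to 0.23). Tumours of different numbers were not compared, so whether the replicate numbers pair the tumours is not settled.

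Over the settings other than left-out arrays, called probe sets numbered 113 to 9698 for MEKi/CD40 against control (6698 as reported), 0 to 6019 for MEKi against control (3525), 0 to 28 for anti-CD40 against control (0), 407 to 8996 for MEKi/CD40 against anti-CD40 (5231), 0 to 4286 for MEKi/CD40 against MEKi (1127), 3 to 4946 for MEKi against anti-CD40 (2292) and 56 to 1893 for the interaction (1191). Signals under 3 are near background and limit the dim probe sets.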
